A study of Canis lupus familiaris with 45 samples.

Results

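CD36, LPL and SCD are 3 genes that stand at successive steps of fatty acid supply to a cell. They were followed in the left ventricle of dogs paced into heart failure. Their members were all probe sets, the groups of oligonucleotides by which an array reads a transcript, whose annotation gave the single symbol CD36, LPL or SCD, whatever their values. That rule found 7 of the 23836 probe sets other than controls: 1 for CD36, 3 for LPL and 3 for SCD. These are 3 of the 6540 genes that have a probe set with 1 symbol on this array.

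The heart takes most of its energy from long-chain fatty acids. LPL, lipoprotein lipase, is made by cardiomyocytes, adipocytes and macrophages, is carried to the capillary wall and there frees fatty acids from the triglyceride of circulating lipoproteins. CD36 is a membrane receptor that binds long-chain fatty acids and takes part in their uptake by capillary endothelium and by cardiomyocytes, and it is also found on macrophages and platelets. SCD, stearoyl-CoA desaturase, sits in the endoplasmic reticulum and places a double bond in saturated fatty acyl-CoA, which gives the monounsaturated fatty acids used in triglyceride and membranes.

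The 15 dogs were male and age-matched and formed 5 groups of 3. The unpaced dogs are called Day-0, and the others had the right ventricle paced at 240 per minute for the time in their name (Day-3, Week-1 and Week-2) or, in the End-stage dogs, for 3 to 4 weeks until heart failure was at its last stage. Transmural sections of the left ventricle were frozen, and each tissue gave 3 separate RNA isolations and as many arrays, 45 in all. Pacing followed surgery to place a pacemaker, and the labels do not say whether the unpaced dogs had that surgery. The sections hold every cell type of the ventricular wall.

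A level below is a log2 of the array signal averaged over the 3 arrays of a dog, and the dog is the replicate (n = 3 per group). Levels of different probe sets are not comparable with each other. Differences were tested with limma over 14302 probe sets. Adjusted p-values are two-sided Benjamini-Hochberg values over all of them, with a threshold of 0.05. Between 0 and 43 probe sets passed in a comparison, and the typical SE of a difference between 2 groups was 0.22. The 9 tested cardiomyocyte markers out of 13 summed to between 63633 and 68157 signal units in dog 1 of every group, and to between 77468 and 101452 in the other dogs. All 9 lay below 0 in each paced group against Day-0, with medians between -0.19 and -0.096 and 0 past the threshold in limma. In each group 1 had an unadjusted p under 0.05 in limma, where 8.07% to 11.2% of all probe sets did. The part of these markers in the results below was not tested. A pair of dogs stood apart. Of the 6 arrays of End-stage dog 1 and Week-1 dog 1, 4 correlated best with an array of the other member of the pair, and 0 of the remaining 39 arrays matched a wrong dog in this way (200 probe sets, picked in dogs that bear other numbers). The main results of the members are therefore also given without these 2 dogs.

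CD36 on chromosome 18 (20626442 to 20655919 in UU_Cfam_GSD_1.0) was read by the probe set 1598100_at. It was lower in the paced hearts than in the unpaced ones, most of all at Week-1 and End-stage, but no difference passed the threshold in the fit reported here. The level was 9.45, 9.79 and 9.65 in the 3 Day-0 dogs, 9.54, 9.18 and 9.37 at Day-3, 8.98, 8.71 and 8.71 at Week-1, 9.25, 8.87 and 9.44 at Week-2, and 9.17, 8.69 and 8.92 at End-stage. Of the 12 paced dogs, 11 lay below every Day-0 dog and 1, Day-3 dog 1, lay within their range. As group means these levels were 9.63 ± 0.17 at Day-0, 9.36 ± 0.18 at Day-3, 8.80 ± 0.16 at Week-1, 9.19 ± 0.29 at Week-2 and 8.93 ± 0.24 at End-stage (SD, n = 3 dogs each). In descending order the groups ran Day-0, Day-3, Week-2, End-stage and Week-1, and each group overlapped with its neighbour in that order.

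**Figure D1:**
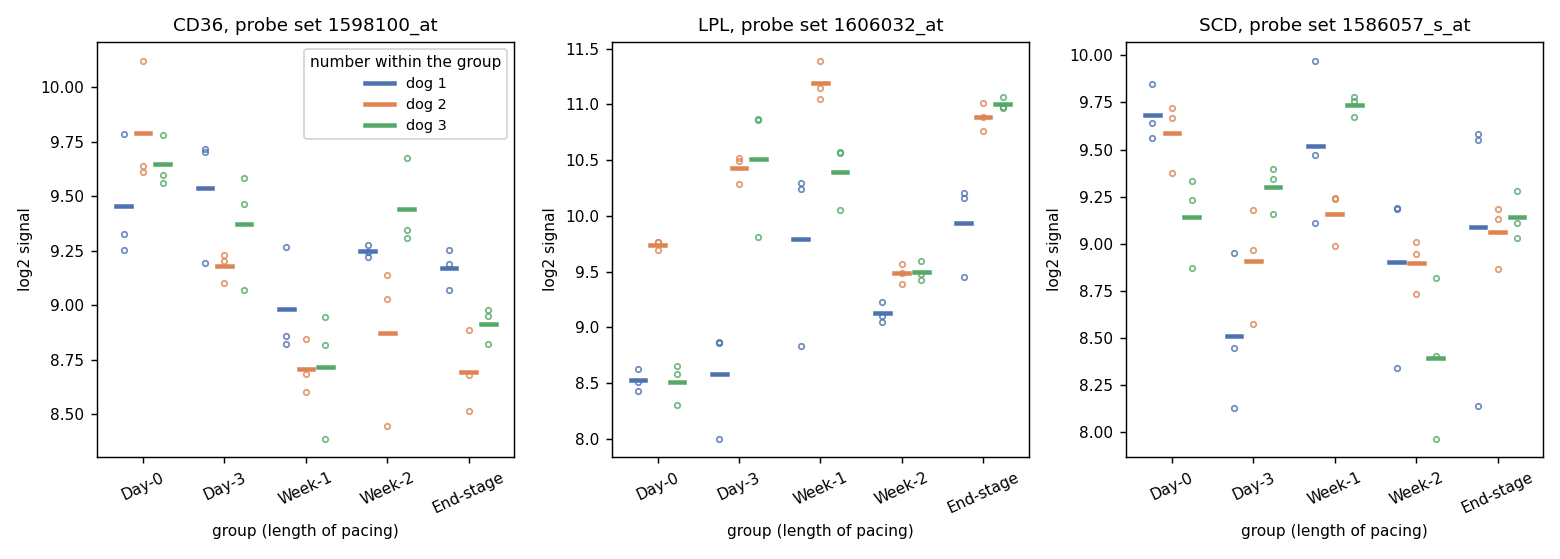
Log2 signal (vertical axes) of the brightest probe set of CD36, LPL and SCD in the 5 groups (horizontal axes, by length of pacing). Bars are dog means, open points the 3 arrays of each dog, and colours the number of the dog within its group. CD36 lies between 8.71 and 8.98 in the Week-1 dogs, LPL spans 8.51 to 11.20 over the 15 dogs, and SCD lies between 8.40 and 8.90 in the Week-2 dogs.

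At Week-1 the CD36 mean was 1.78-fold lower than at Day-0, a log2 difference of -0.83 (SE 0.17) that ranked 25 among the 14302 probe sets by p (limma, unadjusted p = 0.000175, adjusted p = 0.1). The Week-1 dogs did not overlap with the Day-0 dogs. Among all probe sets tested, 9.4% were lower without overlap in this comparison, and 0.00699% were lower and past the threshold. At End-stage the mean was 1.63-fold lower, a log2 difference of -0.70 (SE 0.17) with limma's adjusted p = 0.2, again without overlap. The End-stage background was 7.94% lower without overlap and 0.014% lower past the threshold. Without Week-1 dog 1 and End-stage dog 1 the 2 differences were -0.92 (adjusted p = 0.13) and -0.83 (adjusted p = 0.147) in limma.

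Week-2 lay nearer to Day-0. The CD36 difference there was -0.44 (limma, adjusted p = 0.328), still without overlap, where 9.21% of all probe sets were lower without overlap. It was -0.29 without Week-2 dog 2, the lowest dog of that group. Day-3 differed by -0.27 (limma, adjusted p = 0.77) with overlapping dogs, and by -0.18 without Day-3 dog 2. Week-1 was lower than Day-3 by a log2 difference of -0.56 with no overlap (limma, unadjusted p = 0.00431, adjusted p = 0.961), where 5.63% of all probe sets were lower without overlap. Week-2 was above Week-1 by 0.39 (limma, adjusted p = 0.847), and Week-2 dog 2 lay among the Week-1 dogs. That difference was 0.26 without Week-2 dog 3. End-stage differed from Week-2 by -0.26 with overlapping dogs (limma, adjusted p = 0.999), and by -0.13 without Week-2 dog 3. In these 2 groups, as in Week-1 and Day-3, the numbers were taken to pair the dogs. End-stage was lower in 3 of 3 pairs (adjusted p = 0.859 in limma with the number as a block). For Week-1 against Day-3 the block gave an adjusted p of 0.638 in limma. All 3 pairs were lower there, but groups without overlap give that count under any pairing, so it adds nothing.

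Over the 4 paced groups together the CD36 level was 9.07, against 9.63 at Day-0, a difference of -0.56 (SE 0.13). It ranked 129 by p (limma, unadjusted p = 0.000706, adjusted p = 0.0783), and 0.161% of all probe sets were lower and past the threshold in this comparison. With the dog number as a block, limma's adjusted p was 0.0397, where 219 probe sets passed. An exact two-sided permutation test of the 12 paced against the 3 unpaced dogs gave p = 0.00659, since 3 of the 455 divisions of the dogs gave a difference as large, and 0.0022 is the smallest p it can give. This was 1 of 7 such tests, 1 for each member probe set, and the p is not adjusted for them. Without Week-1 dog 1 and End-stage dog 1 the exact p was 0.021.

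The levels of cell type markers were set beside CD36. The 7 of 12 endothelial markers tested (among them PECAM1, VWF and FLT1) summed to 5425 to 5666 signal units in the Week-1 dogs, below the 5998 to 6966 of the Day-0 dogs. At End-stage, where CD36 was also low, they summed to 6016 to 7210, which is not below Day-0. The markers were mixed there. By group mean AQP1, TIE1, TEK and FLT1 were lower than at Day-0, and PECAM1, VWF and ENG were higher. The 9 of 11 macrophage markers tested summed to 713 to 1425 at Week-1 and 899 to 1254 at End-stage, against 790 to 1043 at Day-0. The single platelet marker tested of 6, ITGA2B, stood at 33.1 to 40.8 signal units at Week-1 and 20.1 to 54.8 at End-stage, against 31.7 to 36.6 at Day-0. The 5 of 8 smooth muscle and pericyte markers tested summed to 5102 to 5437 at End-stage, below the 6369 to 8239 of Day-0. All 5 lay below 0 there, 4 of them with an unadjusted p under 0.05 in limma and 0 past the threshold. Of all probe sets, 8.23% had such an unadjusted p at End-stage, in either direction. At Week-1 they summed to 5985 to 8288, and 4 of 5 lay below 0. The 4 of 9 fibroblast markers tested summed to 5920 to 10065 at Week-1 and 5602 to 8316 at End-stage, against 5621 to 8558 at Day-0. Of these, 3 lay above 0 in each paced group, with medians between 0.30 and 0.51. The part of these cells in the CD36 levels was not tested. In bulk tissue, fewer cells of a type and less RNA per cell cannot be told apart.

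**Figure D2:**
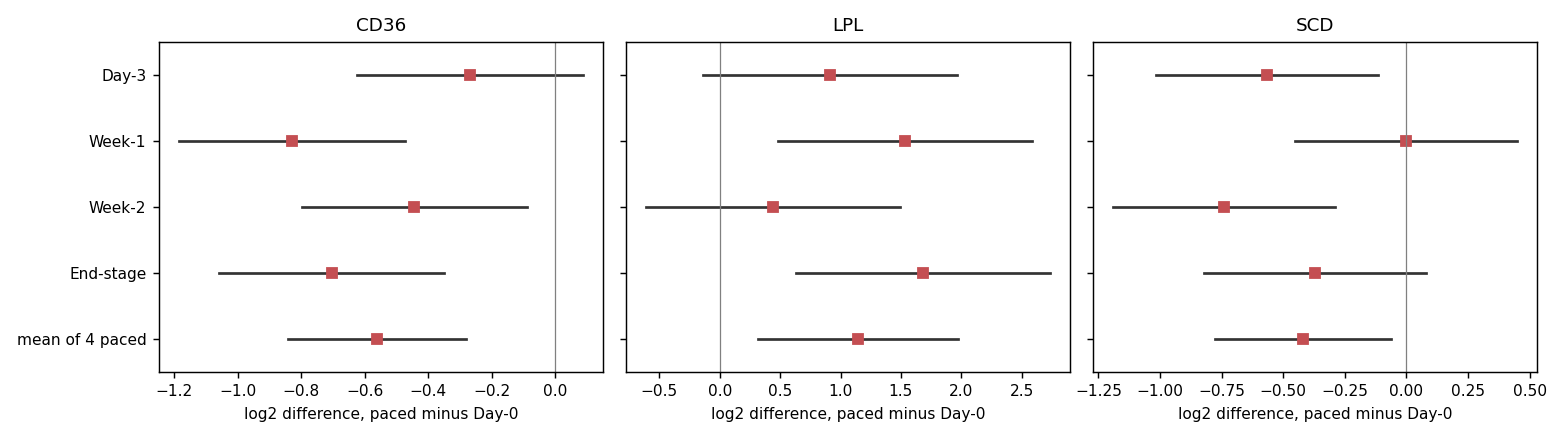
Log2 difference of each paced group, and of the mean of the 4 paced groups, from Day-0 (horizontal axes) for the brightest probe set of CD36, LPL and SCD. Squares are differences and lines their 95% confidence intervals in limma, and the vertical line marks no difference. CD36 differs by -0.83 at Week-1, LPL by 1.53 at Week-1 and 1.68 at End-stage, and SCD by -0.74 at Week-2.

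LPL on chromosome 25 (37256141 to 37280964) was read by 3 probe sets, of which 1606032_at was the brightest. It had the widest spread of the 3 genes, with higher levels in most paced dogs than in most unpaced ones. No difference passed the threshold in the fit reported here. The level was 8.52, 9.74 and 8.51 in the Day-0 dogs, 8.58, 10.43 and 10.51 at Day-3, 9.79, 11.20 and 10.39 at Week-1, 9.13, 9.48 and 9.50 at Week-2, and 9.94, 10.89 and 11.00 at End-stage. Of the 12 paced dogs, 8 lay above every Day-0 dog and 4 lay within their range, namely Day-3 dog 1 and all 3 Week-2 dogs. Day-0 dog 2 stood far above the other unpaced dogs. In each paced group the lowest LPL level was that of dog 1, which also had the lowest cardiomyocyte marker sum of its group. Whether these go together was not tested.

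The LPL group means were 8.93 ± 0.71 at Day-0, 9.84 ± 1.09 at Day-3, 10.46 ± 0.71 at Week-1, 9.37 ± 0.21 at Week-2 and 10.61 ± 0.59 at End-stage (SD, n = 3 dogs each). In ascending order these run Day-0, Week-2, Day-3, Week-1 and End-stage, and each overlapped with its neighbour. The highest and the lowest of the 15 dogs differed 6.43-fold. The SD within groups, 0.72, was larger than that of 97% of the probe sets tested, whose median was 0.27. By the same measure CD36, at 0.21, stood at the percentile of 33 and SCD, at 0.29, at 55. Among RNA isolations of the same dog the SD was 0.34 for LPL, 0.22 for CD36 and 0.34 for SCD. These values describe single arrays, whereas the SD within groups describes dog means over 3 arrays. Which of them is larger therefore does not show whether dogs differed more than isolations. The SCD value also takes in End-stage dog 1, whose isolations read 8.14, 9.58 and 9.55 for 1586057_s_at.

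At End-stage the LPL mean was 3.21-fold that of Day-0, a log2 difference of 1.68 (SE 0.49, limma, unadjusted p = 0.00392, adjusted p = 0.285). At Week-1 it was 2.90-fold that of Day-0, a log2 difference of 1.53 (SE 0.49, limma, adjusted p = 0.305). The dogs did not overlap with Day-0 in either group. Among all probe sets, 6.33% were higher without overlap at End-stage and 6.73% at Week-1, while 0% and 0.021% were higher and past the threshold. Without Week-1 dog 1 and End-stage dog 1 the differences were 2.02 at End-stage (adjusted p = 0.247) and 1.87 at Week-1 (adjusted p = 0.347) in limma.

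The Week-1 and End-stage values sat on either side of a lower Week-2. Week-2 differed from Week-1 by -1.09 (limma, unadjusted p = 0.0431, adjusted p = 0.847), and End-stage differed from Week-2 by 1.24 (limma, unadjusted p = 0.0239, adjusted p = 0.999). Neither pair of groups overlapped, where 0% of all probe sets passed the threshold in either direction, 5.2% were lower without overlap in the first pair and 3.88% higher in the second. These 2 comparisons share the Week-2 dogs. Week-1 differed from Day-3 by 0.62 with overlapping dogs (limma, adjusted p = 0.994), by -0.012 without Day-3 dog 1 and by 0.96 without Day-3 dog 3. It was higher in 2 of 3 pairs (adjusted p = 0.805 in limma with the block). Without Week-1 dog 2, the highest of all dogs, Week-2 differed from Week-1 by -0.72. Without the pair of dogs that matched each other, Week-2 differed from Week-1 by -1.43 and End-stage from Week-2 by 1.58.

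Against Day-0, Week-2 differed by 0.44 (limma, adjusted p = 0.813) and Day-3 by 0.91 (limma, adjusted p = 0.694). Both changed in size with the dog left out. The Week-2 difference was 0.85 without Day-0 dog 2 and 0.24 without Day-0 dog 3, and the Day-3 difference was 1.55 without Day-3 dog 1 and 0.58 without Day-3 dog 3. Over the 4 paced groups the LPL level was 10.07, against 8.93 at Day-0, a difference of 1.14 (SE 0.39, limma, adjusted p = 0.228). In this comparison 0.14% of all probe sets were higher and past the threshold. With the dog number as a block, limma's adjusted p for LPL was 0.0397, where 219 probe sets passed. The exact two-sided permutation test of 12 against 3 dogs gave p = 0.0462, and 0.0734 without Week-1 dog 1 and End-stage dog 1.

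The second LPL probe set, 1583007_at, followed the first closely, with a Pearson r of 0.9957 over the 15 dogs. Both read transcripts of 1 gene in the same RNA, so this is no independent evidence. Its level was 8.32, 9.30 and 9.71 at End-stage, against 6.67, 8.15 and 6.63 at Day-0, a 3.90-fold difference with no overlap (limma, adjusted p = 0.269). At Week-1 its level was 8.25, 9.85 and 8.99, 3.68-fold that of Day-0 (limma, adjusted p = 0.281). Its dogs spanned 9.36-fold, and its exact permutation p for 12 paced against 3 unpaced dogs was 0.0242, or 0.0385 without the 2 dogs. The third, 1583006_at, averaged a signal of 20.4, below the limit of 22.8 that a probe set had to reach to be tested. Its level was 5.14, 5.36 and 5.32 at End-stage, against 3.00, 3.23 and 4.45 at Day-0, again with no overlap, and its exact permutation p was 0.0769, or 0.0594 without the 2 dogs.

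**Figure D3:**
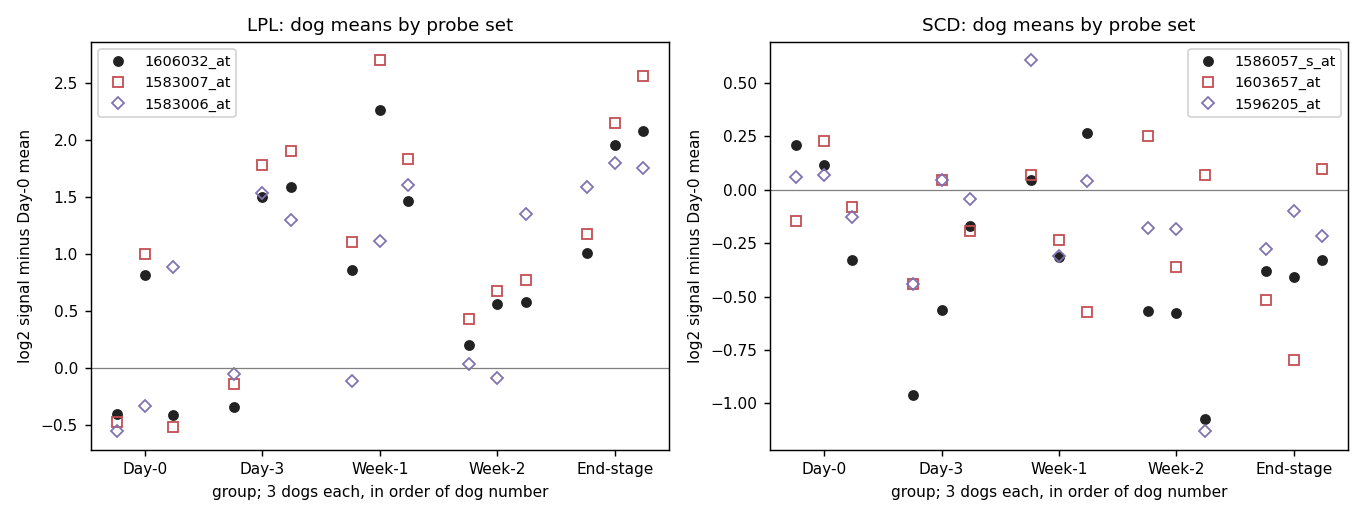
Dog means of all 7 member probe sets other than that of CD36, as log2 signal minus the Day-0 mean of the same probe set (vertical axes), for the 3 LPL and 3 SCD probe sets. The dogs are ordered by group and number (horizontal axes). The 2 brighter LPL probe sets move together (r of 0.9957), while 1603657_at of SCD does not follow 1586057_s_at (r of -0.0043).

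Single RNA isolations stood apart in LPL. The 3 isolations of Week-1 dog 1 read 10.30, 8.83 and 10.24 for 1606032_at, and those of End-stage dog 1 read 9.45, 10.20 and 10.16. Isolation 2 of the first dog and isolation 1 of the second, the lower reading in each, were also the 2 arrays that matched each other in the check above. Day-3 dog 3 read 10.87, 10.86 and 9.81. For this probe set, isolations labelled as of the same dog differed by up to 2.76-fold. That was in Week-1 dog 1 and rests on the array that matched End-stage dog 1. In Day-3 dog 3 they differed by 2.08-fold.

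Adipocyte and macrophage markers were set beside LPL. Of 9 adipocyte markers 3 were tested (ADIPOQ, LIPE and PCK1), and LEP was on the array below the filter. Their summed signal was 130 to 515 at Day-3, 139 to 474 at Week-1, 125 to 264 at Week-2 and 137 to 178 at End-stage, against 105 to 190 at Day-0. The End-stage dogs, with the highest LPL mean, thus lay within the Day-0 range. The level of ADIPOQ, the adipocyte hormone adiponectin, was highest in Week-1 dog 3 (8.58) and Day-3 dog 3 (8.15), and LPL in these dogs was 10.39 and 10.51. In the 3 dogs with the highest LPL, Week-1 dog 2, End-stage dog 3 and End-stage dog 2, the level of ADIPOQ was 6.24, 5.71 and 4.92. Macrophage markers summed to 759 to 1563 at Day-3 and 898 to 1067 at Week-2, beside the values given above. The part of these cells in the LPL levels was not tested.

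**Figure D4:**
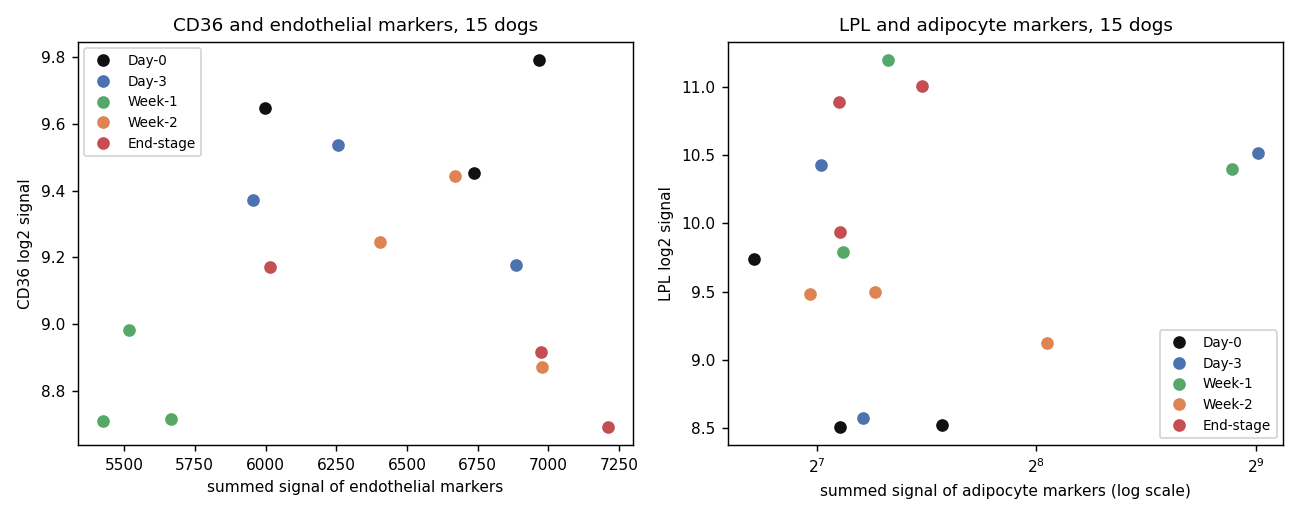
Left, log2 signal of CD36 against the summed signal of 7 endothelial markers in the 15 dogs. Right, log2 signal of LPL against the summed signal of 3 adipocyte markers on a log scale. Each point is a dog and colours are groups. The Week-1 dogs have the lowest endothelial sums, 5425 to 5666, and the End-stage dogs have adipocyte sums of 137 to 178.

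SCD on chromosome 28 (13300894 to 13317236) was also read by 3 probe sets. The brightest, 1586057_s_at, was lowest at Week-2 and stood at Week-1 where it stood in unpaced hearts, and no difference passed the threshold. The ending of its name marks a probe set that may match more than 1 transcript. The level was 9.68, 9.59 and 9.14 in the Day-0 dogs, 8.51, 8.91 and 9.30 at Day-3, 9.52, 9.16 and 9.74 at Week-1, 8.90, 8.90 and 8.40 at Week-2, and 9.09, 9.06 and 9.14 at End-stage. Of the 12 paced dogs, 8 lay below every Day-0 dog, 3 lay within their range and 1 lay above it.

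The SCD group means were 9.47 ± 0.29 at Day-0, 8.90 ± 0.40 at Day-3, 9.47 ± 0.29 at Week-1, 8.73 ± 0.29 at Week-2 and 9.10 ± 0.04 at End-stage (SD, n = 3 dogs each). In descending order Day-0 and Week-1 came first and overlapped, then End-stage, Day-3 and Week-2, each of which overlapped with the next. The Week-1 and End-stage dogs did not overlap. The close agreement of the End-stage dogs hid their isolations, since those of End-stage dog 1 read 8.14, 9.58 and 9.55. The isolations of Week-1 dog 1 read 9.97, 9.11 and 9.47. The readings of 8.14 and 9.11 came from the arrays that matched each other in the check above. The SD of 0.04 at End-stage takes in the 8.14, while the 9.58 and 9.55 lay within the range of the Day-0 dogs.

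At Week-2 the SCD mean was 1.67-fold lower than at Day-0, a log2 difference of -0.74 (SE 0.21, limma, unadjusted p = 0.00332, adjusted p = 0.173), and the dogs did not overlap. Together with CD36 and the dim SCD probe set 1596205_at, 3 of the 6 members tested were lower without overlap at Week-2, where 9.21% of all probe sets were so and 0.042% were lower and past the threshold. The SCD probe sets among them read the same gene in the same RNA, so this is not a count of separate results. Week-2 also differed from Week-1 by -0.74 with no overlap (limma, unadjusted p = 0.00335, adjusted p = 0.76). End-stage differed from Day-0 by -0.37 (limma, adjusted p = 0.72). Those groups did not overlap, but the highest End-stage dog and the lowest Day-0 dog both stood at 9.14. The level of End-stage dog 1 also takes in its isolation of 8.14. End-stage differed from Week-2 by 0.37, also without overlap (limma, adjusted p = 0.999, or 0.859 with the block), and by 0.20 without Week-2 dog 3.

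Day-3 differed from Day-0 by -0.57 (limma, unadjusted p = 0.0172, adjusted p = 0.501), and Day-3 dog 3 lay among the unpaced dogs. At Day-3, 0 of the 6 members tested stood apart from Day-0 without overlap, where 6.16% of all probe sets did so on the higher side and 6.44% on the lower. No probe set passed the threshold there (smallest adjusted p = 0.145 in limma), while 1154 had an unadjusted p under 0.05. The SCD difference was -0.37 without Day-3 dog 1. Week-1 was above Day-3 by 0.57 (limma, unadjusted p = 0.0174, adjusted p = 0.975), and by 0.37 without Day-3 dog 1. It was higher in 3 of 3 pairs (adjusted p = 0.755 in limma with the block). Between Week-1 and Day-0 the 95% interval of the difference ran from -0.45 to 0.45.

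The lower Day-3 and Week-2 levels of SCD thus stood on either side of a Week-1 level like that of Day-0. Over the 4 paced groups SCD averaged 9.05, against 9.47 at Day-0, a difference of -0.42 (SE 0.17, limma, adjusted p = 0.321). The exact two-sided permutation test of 12 against 3 dogs gave p = 0.0901, and 0.0839 without Week-1 dog 1 and End-stage dog 1.

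The 2 dimmer SCD probe sets behaved differently from each other over the dogs. The first, 1596205_at, followed the brightest with a Pearson r of 0.758 over the 15 dogs. Its level was 5.52, 5.51 and 4.57 at Week-2, against 5.76, 5.76 and 5.57 at Day-0, a difference of -0.50 with no overlap (limma, adjusted p = 0.538), and -0.18 without Week-2 dog 3. The second, 1603657_at, had a Pearson r of -0.0043 with the brightest. Its level was 6.19, 5.57 and 6.01 at Week-2, against 5.79, 6.16 and 5.86 at Day-0, a difference of -0.013 (limma, adjusted p = 0.993). Exact permutation p-values for the 12 paced against the 3 unpaced dogs were 0.385 and 0.303, or 0.248 and 0.322 without Week-1 dog 1 and End-stage dog 1. Where these probe sets lie in the transcripts was not analysed here.

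In group means, CD36 and LPL stood farthest from Day-0 at Week-1 and End-stage, on opposite sides, while SCD stood farthest at Week-2. The moderated F test in limma for any difference among the 5 groups gave CD36 an unadjusted p = 0.00123 (adjusted p = 0.289), SCD 0.00984 (adjusted p = 0.448) and LPL 0.0183 (adjusted p = 0.524). In that test 7.37% of all probe sets had an unadjusted p under 0.05, and 0% passed the threshold (smallest adjusted p = 0.0917). Late against early pacing, the mean of Week-2 and End-stage minus that of Day-3 and Week-1, gave -0.026 for CD36, -0.16 for LPL and -0.27 for SCD, each with limma's adjusted p = 1. With 1 dog left out the SCD value ranged from -0.37 to -0.17.

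Without Week-1 dog 1 and End-stage dog 1, 0 of the remaining differences of the members passed the threshold in limma. For CD36 they were -0.61 over the 4 paced groups (adjusted p = 0.0823), -0.65 for Week-1 against Day-3, 0.48 for Week-2 against Week-1 and -0.38 for End-stage against Week-2 (adjusted p of 0.798, 0.896 and 0.963). For LPL they were 1.31 over the 4 paced groups (adjusted p = 0.177) and 0.95 for Week-1 against Day-3 (0.982). The probe set 1583007_at of LPL differed from Day-0 by 2.27 at Week-1 and 2.36 at End-stage (adjusted p = 0.279 and 0.221). For SCD they were -0.42 over the 4 paced groups (adjusted p = 0.417), -0.025 at Week-1 and -0.37 at End-stage against Day-0 (0.997 and 0.793). Between consecutive groups SCD differed by 0.54 for Week-1 against Day-3, -0.71 for Week-2 against Week-1 and 0.37 for End-stage against Week-2 (adjusted p of 0.982, 0.892 and 0.963). The F test gave adjusted p-values of 0.226 for CD36, 0.401 for LPL and 0.625 for SCD, and late against early pacing gave -0.042, -0.16 and -0.26 for the 3 genes in that order. Each of these differences lay on the same side of 0 as with all dogs.

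Over the 15 dogs CD36 and LPL were inversely related, with a Pearson r of -0.69 (two-sided permutation p = 0.00545) and a Spearman rho of -0.693 (permutation p = 0.00541). This was 1 of 3 relations computed, and the adjusted values were 0.0164 and 0.0162. Leaving out the 2 dogs farthest from the median CD36 gave an r of -0.736, and leaving out Week-1 dog 1 and End-stage dog 1 gave an r of -0.701 (permutation p = 0.00996). The permutations moved dogs freely between groups, so these p-values also take in differences that the dogs of a group share. With each group's mean taken off both genes, r was -0.366, which was not tested. CD36 and SCD had an r of -0.116 (permutation p = 0.677, rho -0.0143 with p = 0.964), and LPL and SCD an r of 0.154 (permutation p = 0.581, rho 0.168 with p = 0.551). Without the 2 dogs farthest from the median of the first gene named in each pair, these r were -0.36 and 0.183. Without Week-1 dog 1 and End-stage dog 1 they were -0.0784 and 0.165.

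Other lipid genes were read from 7 lists, each gene by its brightest probe set above the filter. No listed gene passed the threshold in any comparison. In fatty acid uptake and binding, 5 of 13 genes other than CD36 were tested, and 4 of them lay below 0 in each paced group against Day-0. FABP3, the fatty acid binding protein of heart muscle, averaged 11.41 at Day-3, against 12.11 at Day-0 (difference -0.70, limma, adjusted p = 0.365), and differed by -0.44 without Day-3 dog 2. CAV1, the caveolar coat protein, FABP5, a second binding protein, and VLDLR, a lipoprotein receptor, differed by -0.062, -0.14 and 0.049 between the 4 paced groups and Day-0.

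In the handling of LPL, 4 of 13 other genes were tested. APOC2, the cofactor that LPL needs, averaged 4.38 at Week-1, against 5.46 at Day-0 (difference -1.07, limma, adjusted p = 0.446). ANGPTL2, a secreted angiopoietin-like protein, averaged 6.36 at Week-2, against 5.63 at Day-0 (difference 0.73, limma, adjusted p = 0.447). SEL1L, which in mice is needed for LPL to leave the endoplasmic reticulum, and HSPG2, the heparan sulphate proteoglycan perlecan, differed by 0.073 and 0.011 over the 4 paced groups. ANGPTL4, an inhibitor of LPL, and APOC3 were on the array below the filter.

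**Figure D5:**
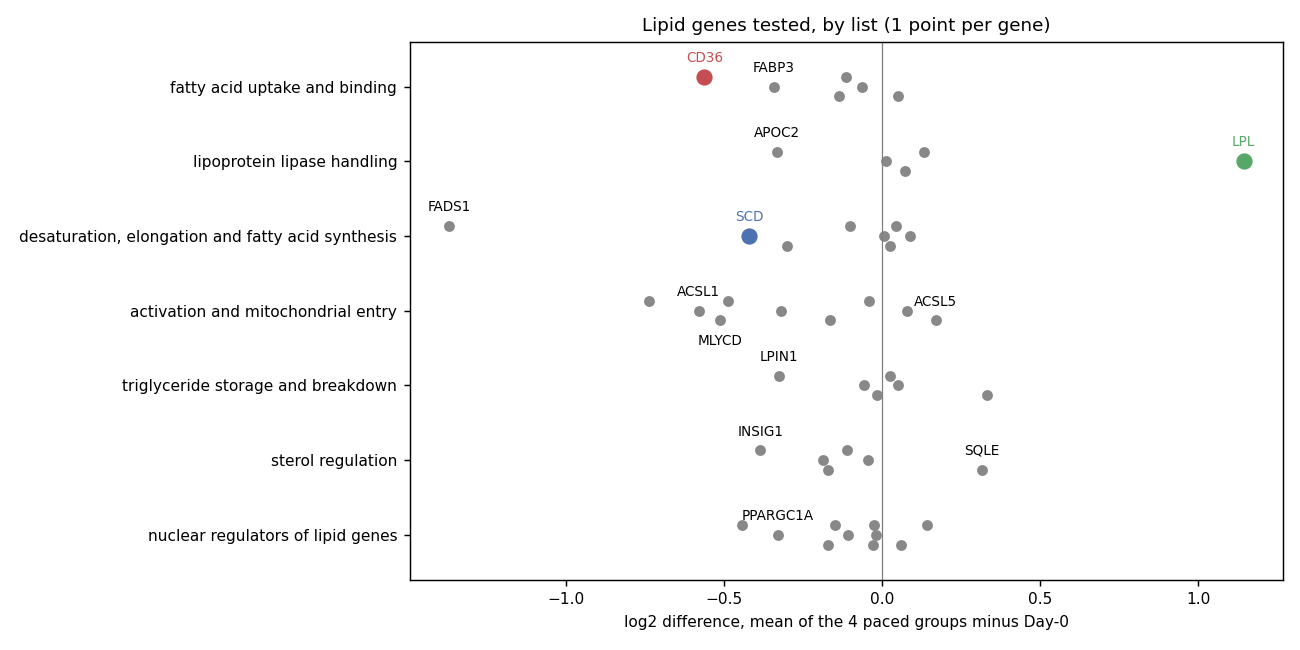
Log2 difference between the mean of the 4 paced groups and Day-0 (horizontal axis) for every gene tested in the 7 lipid gene lists (rows). Each point is 1 gene by its brightest probe set, larger coloured points are CD36, LPL and SCD, and some genes named in the text are labelled. LPL lies at 1.14, CD36 at -0.56, SCD at -0.42 and FADS1 at -1.37.

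Among desaturation, elongation and synthesis genes, 7 of 15 other than SCD were tested. FADS1, a desaturase of polyunsaturated fatty acids, stood at 8.37, 7.59 and 7.34 at Day-3, 8.18, 7.82 and 7.98 at Week-2 and 8.23, 7.29 and 7.74 at End-stage, against 9.85, 9.07 and 9.41 at Day-0. None of these 3 groups overlapped with Day-0. The differences were -1.67 at Day-3, -1.45 at Week-2 and -1.69 at End-stage, with limma's adjusted p between 0.177 and 0.285. Week-1 stood at 7.56, 9.17 and 9.62 and differed by -0.66, or by -0.045 without Week-1 dog 1. Over the 4 paced groups FADS1 differed by -1.37 (limma, adjusted p = 0.0923). Without Week-1 dog 1 and End-stage dog 1 it passed the threshold, at -1.27 over the 4 groups (adjusted p = 0.032) and -1.93 at End-stage (adjusted p = 0.0377). FADS3, of the same family, averaged 10.44 at Day-3, against 11.04 at Day-0 (difference -0.60, limma, adjusted p = 0.362). CYB5R3, a reductase that passes electrons to desaturases, and ME1, malic enzyme, differed by 0.044 and 0.0056 over the 4 paced groups.

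Genes that activate fatty acids and bring them into mitochondria had 9 of 14 members tested. Of these, 8 lay below 0 at Day-3 and at Week-1, 7 at Week-2 and 6 at End-stage. Their medians were -0.38, -0.44, -0.24 and -0.23 in that order of time, beside medians over all probe sets between -0.026 and 0.0042. ACSL1, the main long-chain acyl-CoA synthetase of the heart, averaged 10.81 at Day-3, 10.97 at Week-1, 10.96 at Week-2 and 10.98 at End-stage, against 11.51 at Day-0. All 12 paced dogs lay below the 3 unpaced dogs, which 1.61% of all probe sets did (difference over the 4 groups -0.58, limma, adjusted p = 0.0711). With quantile normalisation this difference passed the threshold (adjusted p = 0.0455). MLYCD, which breaks down the malonyl-CoA that inhibits mitochondrial entry, likewise lay below Day-0 in all 12 dogs (difference -0.51, limma, adjusted p = 0.0955). ACSL5, another acyl-CoA synthetase, averaged 7.28 at Week-2, against 6.86 at Day-0 (difference 0.42, limma, adjusted p = 0.24). DBI, an acyl-CoA binding protein, differed by 0.081 over the 4 groups.

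Triglyceride storage and breakdown had 6 of 19 members tested. LPIN1, a phosphatidate phosphatase, differed by -0.33 over the 4 paced groups (limma, adjusted p = 0.554). The lipases LIPE and PNPLA2 and the lipid droplet coat protein PLIN2 differed by -0.016, 0.024 and 0.049. Sterol regulation had 6 of 15 tested, with 5 below 0 over the 4 groups. INSIG1, which holds the SREBP transcription factors in the endoplasmic reticulum, averaged 6.68 at End-stage, against 7.29 at Day-0 (difference -0.61, limma, adjusted p = 0.395). SQLE, FDFT1 and FDPS, enzymes of cholesterol synthesis, differed by 0.32, -0.17 and -0.19 over the 4 groups.

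Nuclear regulators of lipid genes had 10 of 17 members tested, of which 8 lay below 0 over the 4 groups, with a median of -0.068. PPARGC1A, a coactivator of mitochondrial genes, differed by -0.33 and PPARA, a receptor that responds to fatty acids, by 0.14 (limma, adjusted p = 0.61 and 0.807). MLX, a partner of glucose-responsive transcription factors, averaged 9.48 at Week-2, against 9.79 at Day-0 (difference -0.31, limma, adjusted p = 0.315). RXRB, a receptor partner, differed by -0.024 over the 4 groups.

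The genes whose levels were most like each member over the 15 dogs were found among 5275 genes by Pearson r, as a description in which dogs of a group share their pacing. Genes picked in this way tend to differ in the groups where the member does. Their differences, here and in the next paragraph, are therefore no independent evidence. For CD36 they were MED21, a Mediator subunit (r of 0.838), NDUFA9, a subunit of respiratory complex I (0.824), PCMTD2 (0.824), the tetraspanin TSPAN7 (0.81) and the adaptor subunit AP3M1 (0.808). TSPAN7 averaged 9.01 at Week-1, against 9.61 at Day-0 (difference -0.60, limma, adjusted p = 0.181). NDUFA9 averaged 11.10 at Week-1, against 11.65 at Day-0 (difference -0.55, limma, adjusted p = 0.327).

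For LPL they were the laminin chain LAMB1 (0.862), the kinase TLK2 (0.843), TOX4 (0.778), the mitochondrial ribosomal protein MRPL20 (0.759) and APOBEC2, a muscle protein of the cytidine deaminase family (0.757). LAMB1 stood at 8.70, 9.37 and 8.93 at Week-1, against 8.46, 8.54 and 8.36 at Day-0, without overlap (difference 0.55, limma, adjusted p = 0.372). For SCD they were the condensin subunit NCAPG (0.849), the BMP receptor BMPR1A (0.802), the exocyst subunit EXOC6 (0.8), the phosphatase SSH3 (0.798) and ZCCHC9 (0.794). NCAPG averaged 4.78 at Week-2, against 5.41 at Day-0 (difference -0.63, limma, adjusted p = 0.31).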

How the data were processed

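Arrays of 45 RNA isolations from 15 dogs were analysed, with groups, dog numbers and isolation numbers taken from the labels. Per the submitters' processing notes, GCOS 1.4 and MAS5 were used. The deposited values are linear signal intensity per probe set, scaled by the authors: with 2% trimmed at each end, the mean was 150.02 to 150.026 on every array, and the median was 33.3 to 48.6. The genome build behind the array was not given in the sources used here. Of 23913 probe sets, 77 controls were left out. Names came from the platform annotation, and symbols and gene positions from the RefSeq table of UU_Cfam_GSD_1.0. The number of dogs limits the precision, as arrays have no sequencing depth.

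The deposited intensity was put on a log2 scale, with 1 mean per dog from its 3 arrays. The dimmest 40% of probe sets (mean signal under 22.8) were dropped, which kept 14302 for 1 model of group means over all 15 dogs (limma 3.58.1, R 4.3.3, eBayes with an intensity trend). The contrasts were each paced group minus Day-0, consecutive paced groups, the mean of the 4 paced groups minus Day-0, late minus early pacing, and a moderated F test. Exact permutation tests of 12 against 3 dogs used single probe sets, and 3 dogs against 3 cannot give an exact two-sided p below 0.1. Relations between genes used 100000 permutations of the dogs, without regard to group. The code was tested on simulated data.

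Members, lists and rules were chosen with earlier results of these data known. Besides the members, up to 4 genes of each list with the smallest F test p were named, and the 5 genes most like each member. Genes without a tested probe set were not analysed here. Over all probe sets, the deviations of dogs that share a number correlated at 0.167, 0.296 and 0.318 between Day-3 and Week-1, and at 0.23, 0.242 and 0.102 between Week-2 and End-stage. The numbers were therefore taken to pair dogs in those 2 comparisons, from the data and not from a label. Such deviations correlated at -0.085 to 0.168 in the other comparisons of 2 groups, a range that overlaps with these values. Alternatives covered normalisation, filter, log offset, trend, isolations, replicate block and dogs left out.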

Additional observations from a re-analysis of the deposited data

How the results depend on the processing

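Of 1148 results and settings compared for the members, 1109 kept their direction and their side of the threshold, 24 reversed and 15 passed the threshold where the reported fit did not. The cause was not tested. When all 45 arrays entered the fit with the dog as a random block and 1 correlation shared by all probe sets, CD36 passed at Week-1 (-0.83, adjusted p = 0.00099), End-stage (-0.70, 0.00615), over the 4 paced groups (-0.56, 0.00287) and in the F test (0.00205). LPL (1606032_at) passed likewise (1.53 with 0.00522, 1.68 with 0.00241, 1.14 with 0.00486, and 0.00215 in the F test). This fit passed 273, 376, 483 and 319 probe sets at Day-3, Week-1, Week-2 and End-stage against Day-0, 7, 30 and 3 in the consecutive comparisons, 699 over the 4 paced groups, 23 for late against early and 493 in the F test. No SCD probe set passed in any setting.

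With the replicate block, which adds the dog number as a term, CD36 (-0.56, adjusted p = 0.0397), LPL (1.14, 0.0397) and its probe set 1583007_at (1.41, 0.0372) passed over the 4 paced groups. There the numbers were not taken to pair the dogs, although the check described with the processing did not settle it. Dogs that share a number correlated at -0.085 to 0.168 between Day-0 and a paced group. As given above, dog 1 also had the lowest cardiomyocyte marker sum of every group, Day-0 included. Whether CD36 and LPL passed over the 4 paced groups thus depends on this choice. The block gave 17, 88 and 0 probe sets at Week-1, Week-2 and End-stage against Day-0, 1 for End-stage against Week-2, 219 over the 4 paced groups and 1 in the F test. It changed no other call of a member, Week-1 against Day-3 and End-stage against Week-2 included.

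Where members' directions reversed, the reversed values lay between -0.13 and 0.20, but the reported difference was not always near 0. SCD (1586057_s_at) at Week-1 was 0.037 with median centring, 0.041 without isolation 2 and 0.022 without isolation 3, and ranged from -0.16 to 0.16 with 1 dog left out. CD36 for late against early was 0.021 without isolation 1 and -0.090 to 0.053 with 1 dog left out, and LPL was -0.48 to 0.023. LPL at Week-1 against Day-3, 0.62 in the reported fit, was -0.012 to 0.96 with 1 dog left out, the lowest without Day-3 dog 1. The SCD probe set 1603657_at at Week-2 was 0.0010 with log2 of signal plus 16, 0.20 with the median isolation, 0.13 without isolation 2 and -0.15 to 0.16 with 1 dog left out. The SCD probe set 1596205_at was -0.24 to 0.0021 at Day-3 with 1 dog left out. At Week-1 it was -0.045 without isolation 1, -0.13 without both Week-1 dog 1 and End-stage dog 1, and -0.13 to 0.32 with 1 dog left out. Median centring moved the median of all probe sets to -0.11 for Week-2 against Week-1 and 0.12 for End-stage against Week-2.

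The number of probe sets past the threshold moved with most settings. At Day-3 (0) it was 1 with the median isolation, 1 without isolation 2 and 0 to 23 with 1 dog left out, the most without Day-3 dog 1. At Week-1 (4) it was 13 with quantile normalisation, 1 with median centring, 7 with no filter, 7 with the lowest 20% left out, 12 with the offset of 16, 0 without trend, with the median isolation, without isolation 1 or 2, without the 2 dogs and with any 1 dog left out, and 7 with only the dogs compared. At Week-2 (12) it was 24 with quantile normalisation, 4 with centring, 2 without trend, 6 without isolation 1, 19 without isolation 2, 40 with only the dogs compared, and 0 to 20 with 1 dog left out, the fewest without Week-2 dog 2. At End-stage (2) it was 0 with quantile normalisation, centring, no filter, the lowest 20% left out, no trend, the median isolation and without isolation 1. It was 4 without isolation 2, 5 without isolation 3, 6 with only the dogs compared, 11 without the 2 dogs and 0 to 6 with 1 dog left out. Over the 4 paced groups (43) it was 68 with quantile normalisation, 14 with centring, 21 with no filter, 6 without trend, 11 with the median isolation, 26 without isolation 1, 13 without isolation 3, 28 without the 2 dogs and 1 to 111 with 1 dog left out (without Day-0 dog 2 and Day-3 dog 1). Counts of 0 for consecutive comparisons and for late against early became at most 1 with 1 dog left out, with only the dogs compared (Week-2 against Week-1) and without the 2 dogs (late against early). In the F test (0) it was 2 without isolation 3, 6 without the 2 dogs and 0 to 13 with 1 dog left out. Where a group was left with 2 dogs, the spread was pooled over all groups.

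Most named pathway genes entered only with the paced group that had their smallest limma p against Day-0. ACSL1, MLYCD and FADS1 entered with every paced group and the mean of the 4. That choice favours differences that keep their direction, so reversals cannot be compared with those of the members. Of 807 results and settings for the named pathway genes, 0 reversed and 20 passed the threshold, most of them in the fit of all arrays. ACSL1 over the 4 groups also passed with the block (adjusted p = 0.0262), and FADS1 at Week-2 with only the dogs compared (adjusted p = 0.0252).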
